A study of Drosophila melanogaster with 15 samples.

Results

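Late embryos of Drosophila melanogaster were compared with ovaries, gene by gene, in the promoters, internal exons, introns and 3′ ends that long-read isoforms used in only 1 of the tissues. The genes compared were those whose FlyBase ID (FBgn) occurred in both isoform assemblies, 4621 of the 6525 genes of the embryo assembly and the 6690 of the ovary assembly. The embryo assembly pooled 3 libraries of embryos 14 to 16 h after egg laying and 3 libraries of embryos 18 to 20 h after egg laying, each from 50 embryos, so the ages cannot be told apart. The ovary assembly pooled 3 libraries of 20 ovaries each, dissected from 3-day-old virgin females. All animals were untreated wild type (w1118). Polyadenylated RNA was read as PCR-amplified cDNA on Oxford Nanopore devices after selection of cDNA above 3 kb, with 14 PCR cycles. The deposited assemblies list the position of each isoform and hold no read numbers, so the depth behind an isoform is unknown and every isoform counted once, whatever its abundance. With 1 pooled assembly a tissue there is no replicate error and no test was made. The 95% Wilson intervals given cover only the sampling of genes or features.

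A Drosophila gene can start transcription at several promoters, join its exons in several ways and end at several cleavage and polyadenylation sites, and each full-length read shows which start, splice sites and end were used together. Ovaries consist of germline cysts, nurse cells and oocytes enclosed by somatic follicle cells, and they load the egg with maternal RNA. Embryos of these ages have formed muscle, a nervous system, trachea and cuticle, and neurons of this species are known for long 3′ untranslated regions and for small alternatively spliced exons.

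The assemblies held the markers of their labelled tissues. All 6 neuronal markers had isoforms in embryos (111 isoforms in all) and none in ovaries, as had the 6 cuticle and tracheal markers (67 isoforms). The 8 muscle markers were present in both tissues, with 247 isoforms in embryos and 13 in ovaries, and fat body markers had 30 and 5. Of 9 follicle cell and eggshell genes, 9 were found in ovaries and 2 in embryos. Of 8 germline genes, 6 were found in ovaries with 59 isoforms and 4 in embryos with 16. Oskar (osk), which assembles the germ plasm, had 5 isoforms in ovaries and none in embryos, while vas and cup had none under their ID in either assembly. Fewer cells of a type and fewer isoforms per cell cannot be told apart in such whole tissues.

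The genes compared had 13995 isoforms in embryos and 10289 in ovaries. A gene had on average 3.03 isoforms in embryos and 2.23 in ovaries, with a median of 1 in each. Embryos had more isoforms in 1220 genes, ovaries in 911, and the number was equal in 2490, of which 2186 had 1 isoform in each. The median isoform length was 4079 nt in embryos and 3077 nt in ovaries. Because a gene with more isoforms shows more features, embryo isoforms were drawn at random, in each gene where embryos had more, down to the ovary number. A draw kept 8428 embryo isoforms (60.2%), and counts are the median and range of 99 draws. A promoter or 3′ end was called shared when the other assembly had one within 50 nt or 150 nt, and an exon or intron when both its boundaries lay within 10 nt.

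After drawing, 1961 of 4621 genes (42.4%) used the same promoters, internal exons, introns and 3′ ends in both tissues. The 3′ ends were the kind least often shared. Embryo-only 3′ ends numbered 1998 (1973 to 2040 over draws) in 1502 genes, 32.5% of those compared, and ovary-only 3′ ends numbered 2381 (2350 to 2411) in 1716 genes, 37.1%. A total of 4153 3′ ends, 48.7% of all found in a draw, were shared, against 80.0% of promoters, 82.8% of internal exons and 82.7% of introns. The authors limited 5′ ends to a promoter database and corrected junctions with short reads, while a filter on 3′ ends is not known here. The part of this in the order of the kinds was not tested. The 3′ ends counted here are not known to be true cleavage sites. Among annotated features alone, 583 embryo-only and 924 ovary-only 3′ ends remained, and 454 and 512 promoters. In 656 genes (14.2%) the 3′ ends were the only difference, and in 264 (5.71%) all 4 kinds of feature differed.

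Promoters of 1 tissue were found in the fewest genes. Embryo-only promoters numbered 538 (517 to 560) in 501 genes, 10.8% of those compared, and ovary-only promoters 622 (597 to 649) in 585 genes, 12.7%. Embryo-only internal exons were found in 768 genes (16.6%) and ovary-only exons in 1091 (23.6%), with 1254 (1196 to 1317) and 2017 (1894 to 2109) exons. Embryo-only introns numbered 1426 (1366 to 1506) in 693 genes (15%) and ovary-only introns 2931 (2824 to 3033) in 1479 genes (32%).

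Which tissue had more features of its own depended on the drawing. With all isoforms, the embryo-only count was the higher for each kind, with 769 promoters against 457, 2344 internal exons against 1052, 2642 introns against 1710 and 3302 3′ ends against 2070. When both tissues were drawn to the smaller number in a gene, embryos led in promoters (616 against 534) and 3′ ends (2144 against 2033) and ovaries in internal exons (1743 against 1565) and introns (2460 against 1885). In the 2490 genes with equal isoform numbers, where nothing was drawn, 180 promoters were embryo-only and 177 ovary-only, and 659 and 658 3′ ends. Introns were the exception in that comparison, with 304 ovary-only against 185 embryo-only.

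**Figure D1:**
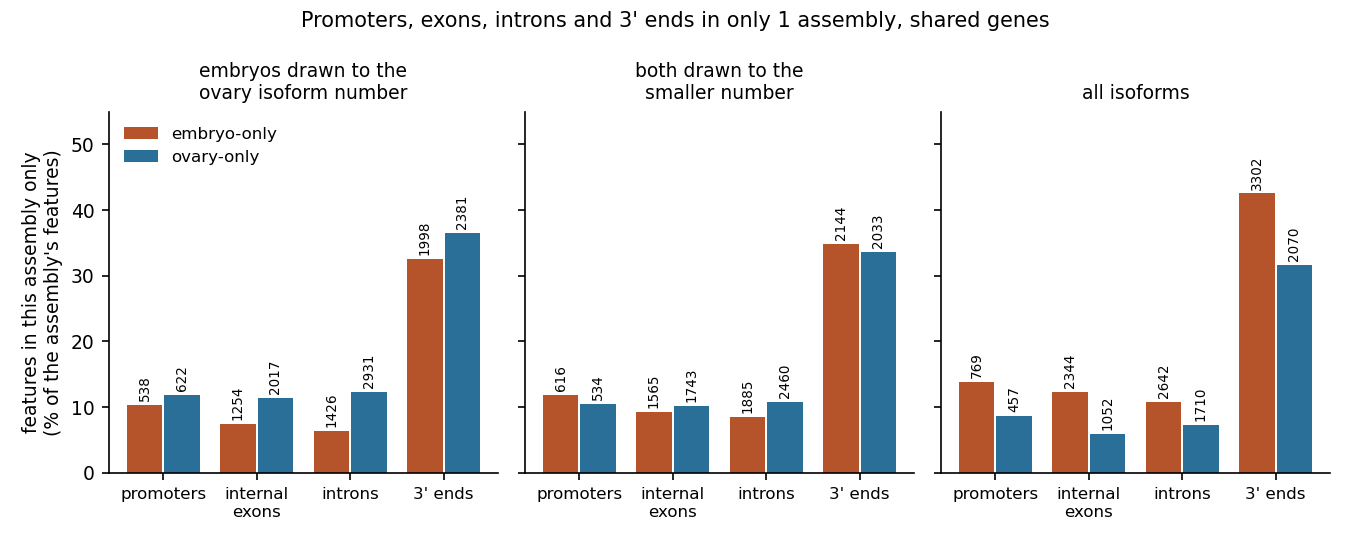
Share of each assembly's promoters, internal exons, introns and 3′ ends that the other assembly lacked (bars, % of the assembly's own features), with embryos drawn, both drawn or all isoforms used (panels from left to right) and the number of features printed above each bar. With embryos drawn, 32.5% of embryo 3′ ends and 36.4% of ovary 3′ ends were in 1 assembly only, against 10.4% and 11.8% of promoters, and the order of the tissues turns when all isoforms are used.

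Features of 1 tissue were less often found in the assembly of adult heads than shared ones. The values of this kind, here and in what follows on position, length and sequence, are for all isoforms without drawing. Of embryo-only promoters 81.1% (Wilson interval 78.1 to 83.7%) were in heads, of ovary-only promoters 69.6% (65.2 to 73.7%) and of shared promoters 97.6%. For introns the shares were 86.5% (85.1 to 87.7%), 75.2% (73.1 to 77.2%) and 99.4%. For 3′ ends they were 55.9%, 54.3% and 93.7%. The reference annotation (Ensembl) held 87.7% of embryo-only and 77.6% of ovary-only promoters but 22.7% of embryo-only and 36.1% of ovary-only 3′ ends. Of embryo-only promoters 10.9% and of ovary-only promoters 19.7% had no isoform of the other tissue on their strand. Their part in the shares of promoters in heads and in the annotation was not tested.

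Among 1360 genes with 2 or more isoforms in each tissue, 11 (0.809%, interval 0.452 to 1.44%) shared no promoter. The pair with the most isoforms were ovo, a zinc finger transcription factor gene of the female germline and of the epidermis, and musashi (msi), an RNA-binding protein first known from sensory organ precursors. In ovo, all 3 embryo isoforms started at X 5048274 and all 12 ovary isoforms at X 5064234, 15960 nt downstream. The embryo start was also used in heads and the ovary start was not. In msi, 7 of 8 embryo isoforms started at 3R 25516119 and 1 at 3R 25518324, while all 4 ovary isoforms started at 3R 25594476, 76152 nt downstream of the nearer embryo start and not in heads. The groups thus did not overlap in either gene.

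The genomic sequences at these starts are shown because they are the only promoters these isoforms used in each tissue. They run from 100 nt before to 10 nt after the 5′ end on the plus strand of dm6 (RefSeq copy of that build). Capitals mark the base of the 5′ end and any of 5 promoter motifs searched below.
ovo, late embryos, chrX:5048174-5048284: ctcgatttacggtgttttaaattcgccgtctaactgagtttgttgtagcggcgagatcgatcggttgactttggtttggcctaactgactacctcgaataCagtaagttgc
ovo, ovaries, chrX:5064134-5064244: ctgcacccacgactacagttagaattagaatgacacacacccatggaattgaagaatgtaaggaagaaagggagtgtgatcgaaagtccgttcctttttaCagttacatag
msi, late embryos, 7 isoforms, chr3R:25516019-25516129: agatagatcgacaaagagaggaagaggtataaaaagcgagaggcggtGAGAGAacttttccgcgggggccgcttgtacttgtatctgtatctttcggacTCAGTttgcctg
msi, late embryos, 1 isoform, chr3R:25518224-25518334: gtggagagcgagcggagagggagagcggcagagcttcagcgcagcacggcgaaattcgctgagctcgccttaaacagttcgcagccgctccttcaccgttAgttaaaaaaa
msi, ovaries, chr3R:25594376-25594486: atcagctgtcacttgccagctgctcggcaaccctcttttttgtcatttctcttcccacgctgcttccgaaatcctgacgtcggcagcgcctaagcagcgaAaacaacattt
The main embryo promoter of msi held GAGAGA 53 nt before the start and TCAGT across it. The other 4 windows held none of the 5 motifs at the searched places.

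**Figure D2:**
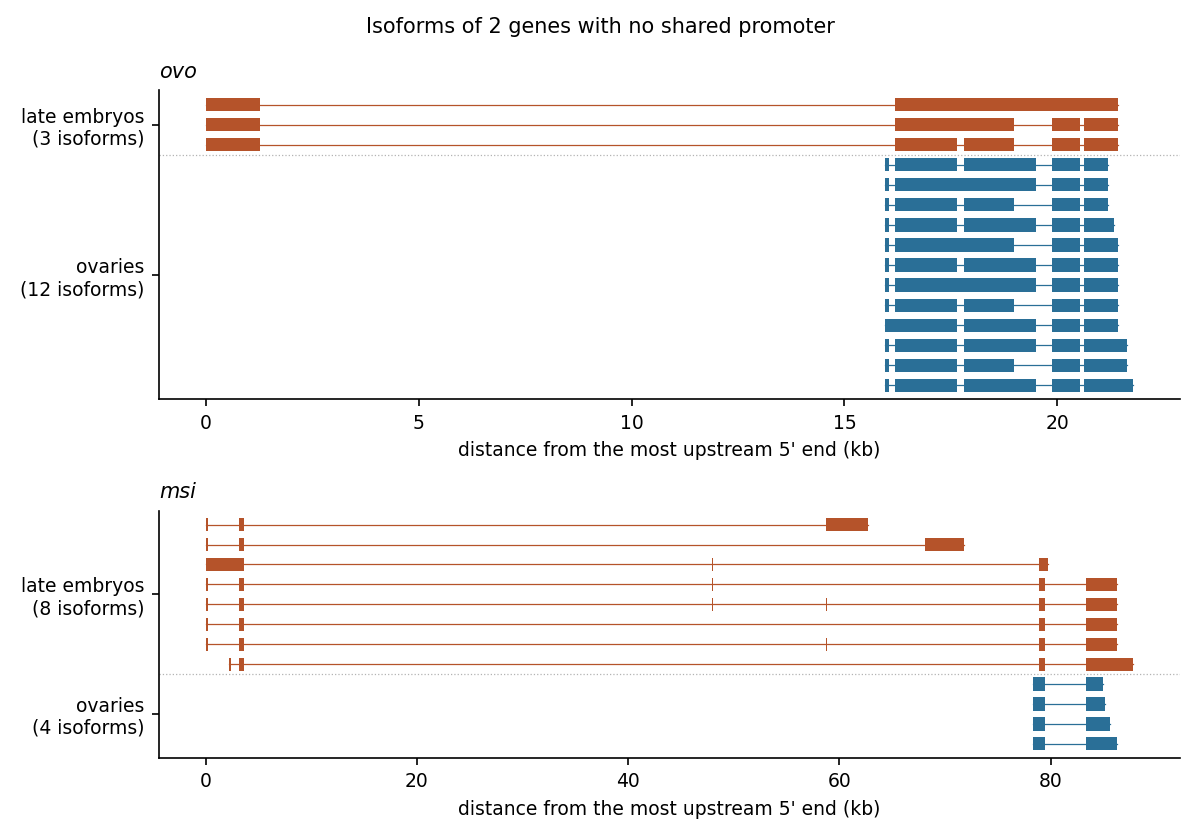
Isoforms of ovo and msi in late embryos and in ovaries, with exons as boxes and introns as lines, against the distance from the most upstream 5′ end (kb). All 12 ovary isoforms of ovo start 15960 nt downstream of the 3 embryo isoforms, and the 4 ovary isoforms of msi start at least 76152 nt downstream of the 8 embryo isoforms.

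The other 9 genes without a shared promoter were br, CG13375, CG9646, cu, Gk2, hoe1, Idh, Irk1 and yin. The Broad-Complex gene br, an ecdysone-response BTB zinc finger factor, started at X 1608870 (6 isoforms) and X 1575133 (1 isoform) in embryos and at X 1612309 in its 2 ovary isoforms, 3439 nt away and not in heads. Curled (cu), related to the circadian deadenylase Nocturnin, started 2817 nt further upstream in ovaries (2 isoforms) than in embryos (3 isoforms). Isocitrate dehydrogenase (Idh) started only 139 nt apart at the nearest, with 2 embryo isoforms downstream of the 5 in ovaries. The smallest distance in these 9 genes ranged from 139 nt in Idh to 175764 nt in CG13375.

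The most embryo-only promoters after drawing were found in SNF4Agamma, the gamma subunit of AMP-activated kinase. Its 18 embryo isoforms used 4 promoters that the 10 ovary isoforms lacked, and 1 more was ovary-only. Supervillin (Svil), an actin-binding protein of the villin family, had 3 embryo-only and 1 ovary-only promoter with 28 and 17 isoforms. Filamin (cher, 11 and 3 isoforms), the polarity kinase aPKC (15 and 4) and the cation channel Trpm (11 and 5) each had 3 embryo-only promoters and no ovary-only one, and wech, an integrin-adhesion protein, had 2 with fewer isoforms in embryos (7) than in ovaries (10). In cher, embryo starts lay 20275 and 23535 nt downstream of the ovary start (4 of 11 isoforms each) and 6307 nt upstream (2 isoforms). Of the embryo-only starts of these 6 genes, 1 of SNF4Agamma was not found in heads and the others were.

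On the ovary side, tyf, a translational activator known from clock neurons, used 2 promoters downstream of every embryo start, X 4119715 in 10 of 19 isoforms and X 4120099 in 4, and neither was in heads. Tao, a Ste20-family kinase of the Hippo pathway, used 2 in 5 of its 13 ovary isoforms while its 3 embryo isoforms used the shared start. The RNA-binding protein gene Rox8 (6 and 11 isoforms), the stress-response factor cnc (11 and 9) and the NAD kinase gene Nadk1a (2 and 5) had 2, 2 and 3 ovary-only promoters. CG4572 had 3, of which 2 lay on the strand opposite to the gene. Isoforms of that kind, 86 in embryos and 94 in ovaries, gave 84 embryo-only and 90 ovary-only promoters with no isoform of the other tissue on their strand.

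Embryo-only promoters lay downstream of the ovary promoters more often than upstream. Of 769 found with all isoforms, 411 (53.4%, interval 49.9 to 56.9%) lay downstream of every ovary promoter of the gene and 208 (27.0%) upstream of all. Of 457 ovary-only promoters, 187 (40.9%, 36.5 to 45.5%) lay downstream of every embryo promoter and 158 (34.6%) upstream. The median distance to the nearest promoter of the other tissue was 3401 nt for embryo-only and 1077 nt for ovary-only promoters, and 25.0% (21.9 to 28.3%) and 10.6% (7.87 to 14.2%) were over 10 kb away. Few lay within 50 nt of the start of another annotated gene, 28 embryo-only and 22 ovary-only ones.

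The sequence around the starts differed between the groups. A total of 5 motifs was counted in the 100 nt before and 50 nt after each start, the DNA replication-related element TATCGATA, the core of motif 1 GGTCACACT and GAGAGA on both strands, TATAAA 15 to 45 nt before the start and the initiator core TCAGT within 5 nt of it on the transcribed strand. Over all 6042 promoters of both assemblies they were found at 11.4%, 8.23%, 10.2%, 3.03% and 9.32%. TCAGT stood at 17.7% (15.2 to 20.5%) of embryo-only, 6.56% (4.64 to 9.22%) of ovary-only and 8.24% (7.50 to 9.05%) of shared promoters. GAGAGA, the sequence bound by GAGA factor, stood at 14.4% (12.1 to 17.1%), 9.63% (7.25 to 12.7%) and 9.53%.

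Motifs known from promoters of broadly expressed genes were scarcer in promoters of 1 tissue. TATCGATA stood at 2.34% (1.49 to 3.67%) of embryo-only, 6.35% (4.45 to 8.96%) of ovary-only and 13.4% (12.4 to 14.4%) of shared promoters, and GGTCACACT at 0.910%, 4.38% and 9.76%. TATAAA stood at 2.99%, 2.19% and 3.11%, with overlapping intervals. Among the 572 embryo-only promoters kept in most draws, TCAGT stood at 17.5% and TATCGATA at 3.15%. A match of letters is a description and not a binding site.

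**Figure D3:**
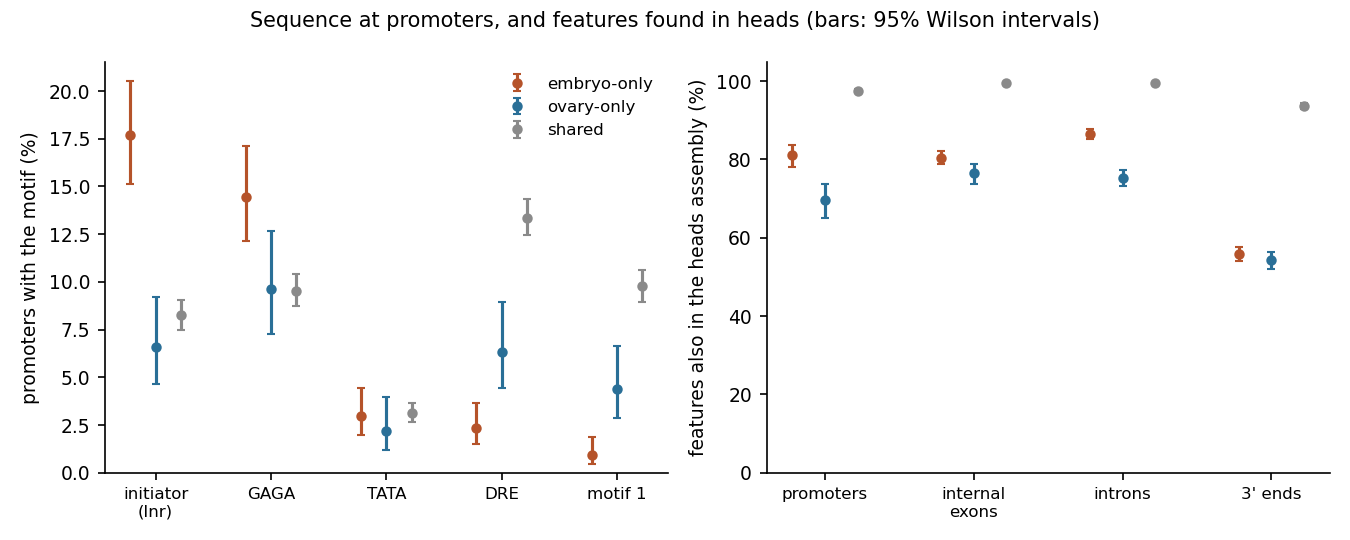
Left, share of embryo-only (769), ovary-only (457) and shared (4816) promoters with each motif (%), and right, share of features of each kind also found in the heads assembly (%). Points are shares and bars 95% Wilson intervals. The initiator core lies highest in embryo-only promoters (17.7%), while DRE and motif 1 lie highest in shared promoters (13.4% and 9.76%).

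The most frequent embryo-only internal exon was one that held an ovary intron, and the most frequent ovary-only one lay outside the stretch of the gene that embryo isoforms covered. Of 2344 embryo-only internal exons, 1112 (47.4%) held an intron that ovary isoforms removed, 468 (20.0%) lay inside an ovary intron, 451 (19.2%) lay outside the span that ovary isoforms covered and 238 had 1 boundary moved. Of 1052 ovary-only exons, 279 (26.5%) lay outside the embryo span, 229 (21.8%) held an embryo intron, 197 had 1 boundary moved and 159 (15.1%) lay inside an embryo intron. Embryo-only exons that held an intron had a median length of 1144 nt, 2.28% of them were annotated and 72.2% were also in heads.

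Coding exons that the other tissue skipped had a length divisible by 3 more often than shared ones, which were not limited to skipped exons. Of 264 embryo-only coding exons inside an ovary intron, 188 (71.2%, 65.5 to 76.3%) had a length divisible by 3, as had 48 of 61 ovary-only ones (78.7%, 66.9 to 87.1%) and 37.1% of 14323 shared coding exons. Their median lengths were 120 and 132 nt. The embryo-only ones inside ovary introns were in heads in 92.1% (89.3 to 94.2%), the ovary-only ones in 76.4% (69.2 to 82.4%).

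In several of the genes with the most exons of 1 tissue, isoforms of the other covered less of the gene. Cadps, which primes dense-core vesicles for release, had 14 embryo isoforms and 1 short ovary isoform, and 26 of its 27 embryo-only exons lay outside the span of that isoform. In Nf1, the Ras regulator neurofibromin, with 1 isoform in each tissue, all 10 lay outside it. In the muscle gene bt, a titin-like protein with 65 and 2 isoforms, 23 of 36 did, and in RluA-2, with 3 and 4 isoforms, 7 of 8. The basement membrane protein perlecan (trol, 28 and 4 isoforms) and the glucose transporter Glut1 (11 and 7) differed inside the shared span, with 10 of 23 and 5 of 10 exons lying inside ovary introns.

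On the ovary side, unc-13, which primes synaptic vesicles, had 21 ovary-only exons from 11 isoforms against 4 in embryos, and 17 lay outside the embryo span. AGO3, a germline Argonaute of the piRNA pathway, had 5 ovary isoforms with 9 exons that its 1 embryo isoform lacked, 7 of them outside its span, and none of the 9 was in heads. The ubiquitin protease gene puf (15 exons), the autophagy gene Epg5 (9), CG2924 (8) and the furry gene, a partner of the kinase Tricornered, with 7 exons, were likewise covered over a longer stretch in ovaries.

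Cassette exons, which lie between splice sites that other isoforms join directly, were rarely switched from all to none. Of 2095 cassette exons, 2030 were spanned by isoforms of both tissues. Of these, 14 were in every spanning embryo isoform and no ovary isoform and 8 the reverse. The strongest by isoform number was a 57-nt coding exon of skywalker (sky), a Rab GTPase-activating protein of synaptic vesicle traffic, included in 3 of 3 spanning ovary isoforms and 0 of 17 in embryos. DIP1, a double-stranded RNA-binding protein, included a 945-nt exon in 2 of 2 embryo isoforms and 0 of 2 in ovaries. The other 20 were spanned by 1 isoform in at least 1 tissue, among them exons of Dhc64C, Nipped-A, Nna1, Orp8 and Oscillin in embryos and of Argk1, CG6191, Liprin-alpha, bbc, fbp, seq and trol in ovaries. The bbc gene also had an exon switched the other way.

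Shifts were commoner toward inclusion in ovaries. Among 1203 cassette exons spanned by 3 or more isoforms in each tissue, inclusion was higher in ovaries by over 50 percentage points in 32 and in embryos in 10, and it differed by at most 20 points in 780. The genes named from here to the end of the paragraph on retained introns were chosen after their values were seen. Ovary isoforms included an 86-nt exon of alpha-actinin (Actn) in 4 of 4 against 5 of 25 in embryos, where 11 skipped it and 9 isoforms retained the intron beside it. They included an 831-nt exon of the myosin phosphatase subunit Mbs in 13 of 14 against 16 of 44, of which 26 skipped it, and a 723-nt exon of the formin Fhos in 4 of 4 against 4 of 11. Embryo isoforms included a 543-nt exon of the coronin-family protein pod1 in 6 of 8 and ovary isoforms in 0 of 4.

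The sequences of 4 short coding exons with such shifts are printed because each has a length divisible by 3 and its inclusion in the tissues lies far apart. Exon bases are in capitals, with 10 bases of intron on each side in lower case, from the RefSeq copy of dm6.
sky exon, chr2L:20875080-20875136, minus strand: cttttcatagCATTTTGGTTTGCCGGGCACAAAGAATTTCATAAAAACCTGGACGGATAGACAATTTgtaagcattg
Nedd4 exon, chr3L:17542891-17542962, plus strand: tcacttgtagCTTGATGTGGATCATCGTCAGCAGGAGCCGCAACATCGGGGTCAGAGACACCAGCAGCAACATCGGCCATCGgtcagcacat
dlg1 exon, chrX:11394223-11394246, plus strand: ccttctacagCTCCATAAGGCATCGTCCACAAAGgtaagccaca
pod1 exon, chrX:6809374-6809406, plus strand: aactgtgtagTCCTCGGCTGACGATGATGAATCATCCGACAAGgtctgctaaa
The 72-nt exon of the ubiquitin ligase Nedd4 was in 7 of 11 ovary isoforms and 0 of 21 embryo isoforms. The 24-nt exon of dlg1, a scaffold protein of septate junctions, was in 3 of 4 ovary and 3 of 14 embryo isoforms. The 33-nt exon of pod1 was in 7 of 8 embryo and 1 of 4 ovary isoforms. Each of the 4 exons is flanked by an AG before and a GT after it.

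No gene of 1354 lacked a shared intron, which allows a share of up to 0.283% (upper Wilson limit). Introns of 1 tissue were longer than shared ones, with a median of 1171.5 nt for 2642 embryo-only, 587.5 nt for 1710 ovary-only and 82 nt for 22010 shared introns, and GT-AG ends were found in 98.8%, 98.8% and 99.1%. Of embryo-only introns, 1224 (46.3%) joined 1 splice site also used in ovaries to another one, 711 (26.9%) lay outside the ovary span and 163 (6.17%) lay inside an ovary exon. Of ovary-only introns, 529 (30.9%) joined 1 site used in embryos, 469 (27.4%) lay inside an embryo exon and 429 (25.1%) outside the embryo span.

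Patronin, which protects microtubule minus ends, had 31 and 15 isoforms with 1 ovary-only intron and 13 embryo-only ones, each of the 13 with at least 1 site that ovaries also used. The BTB chromatin protein gene mod(mdg4), known for joining a common 5′ part to many alternative 3′ exons, had 13 ovary-only introns with 14 and 25 isoforms, and 10 of them joined 1 site used in embryos to another. The splicing repressor heph, the polypyrimidine tract-binding protein, had 8 embryo-only and 10 ovary-only introns with 15 and 23 isoforms.

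Introns left inside an exon were more numerous in embryos under each of 5 ways of choosing isoforms. With all isoforms, 3189 introns were retained in embryos only, 602 in ovaries only and 1195 in both. With embryos drawn to the ovary number the counts were 1857 (1790 to 1929) and 695 (674 to 731), and with both drawn 1915 (1835 to 1999) and 480 (442 to 542), 3.99 times as many in embryos. In the 2490 genes with equal isoform numbers they were 275 and 53. Embryo isoforms were also longer, and with isoforms under 3 kb left out and both tissues drawn, in 1903 genes, the counts were 1175 (1105 to 1279) and 346 (317 to 381). The part of isoform length in the difference was not tested beyond this. None of the 5 ways makes sequencing depth equal, and the part of depth was not tested.

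Most of the retained introns were seen again in heads and few in the annotation. Of those retained in embryos only, 84.1% were also retained in heads and 3.04% in an annotated transcript. Of those retained in ovaries only the shares were 73.8% and 9.30%, and of those retained in both 98.3% and 35.4%.

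The retained share per intron pointed the same way. Among 1707 introns that 3 or more isoforms of each tissue spliced or retained, retention was higher by over 50 points in embryos for 41 and in ovaries for 2. Isoforms that removed the intron within a longer one, by skipping the exon beside it, were left out of these shares. In Actn, 9 embryo isoforms retained such an intron and 5 spliced it, while 11 skipped the exon beside it. The part of exon skipping in the 41 was not tested. Armadillo (arm), the fly beta-catenin, retained a 1008-nt intron in 5 of 9 embryo isoforms and 0 of 5 in ovaries, tropomyosin (Tm1) a 1344-nt intron in 6 of 10 and 0 of 5, and the ribosomal protein gene RpL10 an 805-nt intron in 3 of 5 and 0 of 6. The exceptions were a 518-nt intron of the SR protein gene B52, retained in 4 of 4 ovary and 2 of 5 embryo isoforms, and a 464-nt intron of the deadenylase subunit PAN3, retained in 3 of 5 and 0 of 4. The most introns retained in embryos only were found in CaMKII (14) and cg (13), the latter with fewer isoforms in embryos (14) than in ovaries (23). Of isoforms that spliced or retained the intron beside the Nedd4 or sky exon printed above, all 3 embryo ones retained it in each gene. In ovaries 1 of 8 and 0 of 3 did. These counts leave out embryo isoforms that skipped the exon, 19 of 21 spanning ones in Nedd4 and 14 of 17 in sky.

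**Figure D4:**
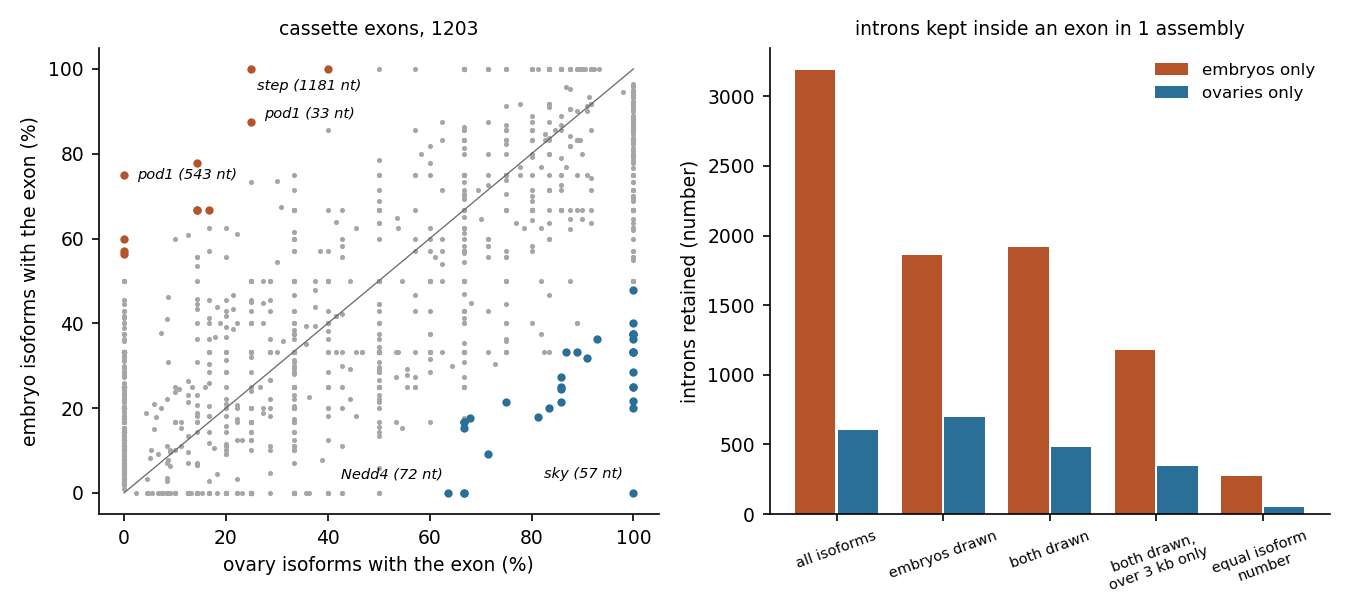
Left, share of isoforms that include each of 1203 cassette exons (% of spanning isoforms, embryos against ovaries), with the 10 higher by over 50 points in embryos and the 32 higher in ovaries coloured and the line of equality drawn. Right, number of introns retained in embryos only or ovaries only under 5 ways of choosing isoforms, where the embryo bar is the higher in each (1915 against 480 with both drawn).

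At the 3′ end, 70 of 1360 genes (5.15%, 4.09 to 6.45%) shared no end within 150 nt. Crooked legs (crol), a zinc finger factor of the ecdysone response, had the most isoforms, with 4 ends among 13 embryo isoforms and 4 others among 18 ovary isoforms, the nearest 327 nt apart. Of the embryo isoforms, 11 ended beyond all ovary ends, at 2L 11794328 or 2L 11795170. The translation release factor gene eRF1, named after its values were seen, had 1 end in each tissue, used by 4 of 4 isoforms, at 3L 20356632 in embryos and 3505 nt upstream at 3L 20353127 in ovaries. The signalling adaptor 14-3-3epsilon ended at 2 sites in its 5 embryo isoforms, both downstream of the 3 sites of its 10 ovary isoforms by at least 679 nt.

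In RpL10 (5 and 7 isoforms) and the microtubule-associated Map205 (4 and 4) the embryo ends also lay downstream of all ovary ends, by at least 2007 and 706 nt. In CG17715 (6 and 6), the mannosidase gene alpha-Man-Ia (6 and 6), the actin-oxidising enzyme Mical (8 and 4) and the scaffold gene Prosap (10 and 4), as in crol, embryo ends lay both upstream and downstream of ovary ends.

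The most distal 3′ end of a gene lay farther downstream in embryos more often than in ovaries. With embryos drawn, 564 of 4295 genes (13.1%, 548 to 579 over draws, interval 12.2 to 14.2%) whose last exons overlapped between the tissues ended over 150 nt farther in embryos and 381 (8.87%, 366 to 396, interval 8.06 to 9.76%) in ovaries. With both drawn the counts were 628 and 349, with all isoforms 665 and 316, and in genes with equal isoform numbers 235 and 201. The sizes differed too. With all isoforms the median difference was 781 nt where embryos were longer and 293 nt where ovaries were, and 276 and 31 genes differed by over 1 kb. These sizes were not computed after drawing. Embryos had more isoforms, and the part of isoform number in the sizes was not tested. In 91 and 30 genes the extra stretch overlapped an exon of another annotated gene. Without these genes the medians were 725.5 and 290.5 nt. Embryo isoforms were also longer. With isoforms under 3 kb left out of both tissues, 1903 genes remained before the condition on last exons, and the counts were 306 and 148. These come from fewer genes than the counts above.

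**Figure D5:**
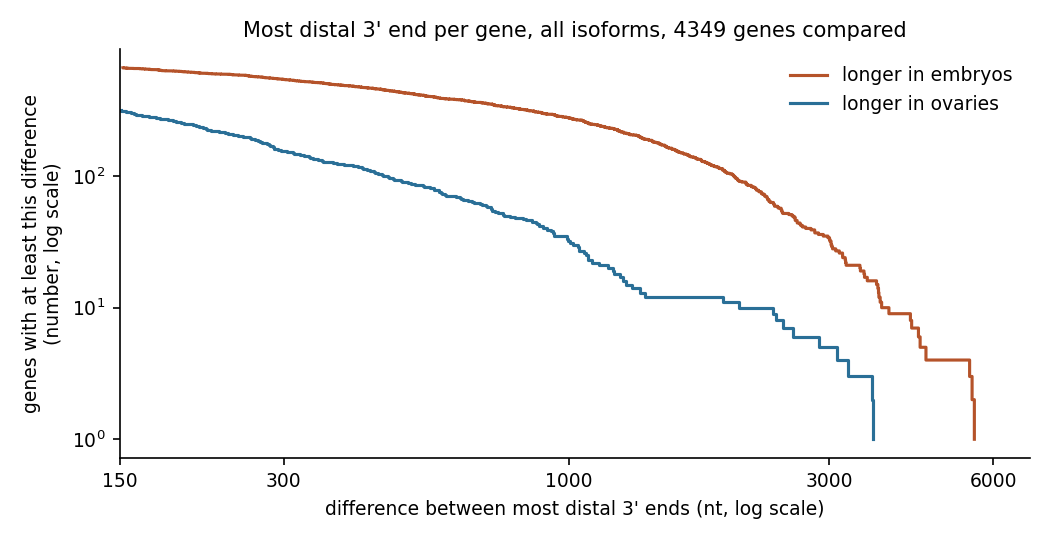
Number of genes whose most distal 3′ end differs by at least the distance on the x axis (nt, both axes log scale), with all isoforms, for 665 genes longer in embryos and 316 longer in ovaries. The curves part with distance, and 276 against 31 genes differ by over 1 kb. Isoform numbers were not made equal between the tissues here.

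Of genes with 2 or more isoforms in each tissue and overlapping last exons, a condition that eRF1 did not meet, the 6 with the largest difference toward embryos ended 3211 to 4229 nt farther. Smooth (sm), an hnRNP L relative, ended 4229 nt farther in embryos (45 and 7 isoforms), the spindle assembly factor BuGZ 3862 nt (2 and 4), the RNA-editing enzyme Adar 3525 nt (10 and 5) and the RING finger protein Rnf11 3476 nt (3 and 2). In CG13585 (3417 nt) and CG12547 (3211 nt) the extra stretch overlapped an exon of another gene. The longest 3′ untranslated region of Adar was 4311 nt in embryos and 786 nt in ovaries, and that of CG12547 3672 and 461 nt. In sm it was 4339 and 2694 nt, in BuGZ 4277 and 2268 nt and in CG13585 263 nt in both. The distance between ends is thus not always a gain of untranslated region of that length.

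The last 30 bases before the most distal ends of Adar and BuGZ are printed to show where AATAAA, the canonical cleavage signal, was found. Capitals mark AATAAA, and both genes lie on the plus strand of dm6 (RefSeq copy).
Adar, late embryos, chrX:1788036-1788065: aatttAATAAAttaccaataatatatagag
Adar, ovaries, chrX:1784511-1784540: tgAATAAAactgtgttcttggttgaaaaac
BuGZ, late embryos, chr2L:16753675-16753704: ttgacattttaAATAAAacaAATAAAagtg
BuGZ, ovaries, chr2L:16749813-16749842: tatatatatatatttccttcatctaaagca
AATAAA stood 25 nt before the embryo end of Adar and 28 nt before its ovary end. The embryo end of BuGZ held it in 2 copies and the last 30 bases of its ovary end held none.

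Toward ovaries, dikar ended 3105 nt farther (5 embryo and 3 ovary isoforms), eIF4G2, a translation initiation factor required for spermatogenesis, 2364 nt (3 and 6), dmpd 2052 nt (4 and 4), nocte, which entrains the clock to temperature, 1377 nt (4 and 7), Pep 1243 nt (7 and 7) and CG14441 1212 nt (2 and 2). Of these 6 distal ends, that of eIF4G2 had AATAAA upstream, and the genome was A-rich just after it. For the 6 genes longer in embryos, 5 ends had AATAAA and none was followed by A-rich sequence.

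Ends of 1 tissue held the canonical signal less often than shared ends. AATAAA stood within 50 nt before 24.9% (23.4 to 26.4%) of 3302 embryo-only, 28.0% (26.1 to 29.9%) of 2070 ovary-only and 52% (50.5 to 53.5%) of 4464 shared ends, and before 37.8% of all 9836. The share also differed with position in the gene. Embryo-only ends downstream of all ovary ends held it in 46.1% (43.0 to 49.2%) of 996, those upstream of all in 16.0% (14.2 to 18.0%) of 1480 and those in between in 12.5% of 742. For ovary-only ends the shares were 33.3% (29.1 to 37.7%) of 451 downstream, 28.7% (25.9 to 31.6%) of 956 upstream and 23.2% of 574 in between. A-rich sequence, at least 12 A in the next 20 nt, followed 8.24%, 7.25% and 7.41% of embryo-only, ovary-only and shared ends, with overlapping intervals.

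Genes with the most 3′ ends of 1 tissue had 4 to 54 isoforms in a tissue. The BTB zinc finger gene lola, with 54 and 48 isoforms, had 15 embryo-only and 11 ovary-only ends. The polarity gene scrib (36 and 15 isoforms) had 16 and 2, Svil (28 and 17) 11 and 2, Glut1 (11 and 7) 10 and 4, heph (15 and 23) 6 and 3, and the translational repressor pum (21 and 12) 10 and 0. In pum, 7 of the 10 embryo-only ends lay upstream of all ovary ends and 2 downstream of them. On the ovary side mod(mdg4) had 13 ovary-only ends against 3 in embryos, the neuronal scaffold gene Spn 7 against 3 (4 and 11 isoforms), the Max-network repressor Mnt 6 against 2 (14 and 24), east 6 against 1 (8 and 19) and tyf 6 against 2 (6 and 19).

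Ends that went with a start of the same tissue were counted in genes where isoforms of 1 tissue left both a shared and a tissue-only promoter. In embryos, 577 of 1206 isoforms (47.8%) from embryo-only promoters and 1041 of 2231 (46.7%) from shared promoters reached an embryo-only 3′ end, and the share was higher from the embryo-only promoter in 138 of 287 genes, lower in 142 and equal in 7. In ovaries the shares were 93 of 196 (47.4%) and 174 of 485 (35.9%), higher in 57 of 109 genes and lower in 50. Isoforms of 1 gene are not independent, and these counts are a description.

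Isoforms were translated from the most 5′ annotated start codon they held to the next stop codon, to show which differences reach the protein. All isoforms were used without drawing, and 12937 in embryos and 9616 in ovaries had a predicted protein. Of 4321 genes with a predicted protein in each tissue, 2537 (58.7%) had the same set in both. A protein in embryos only was found in 1328 (30.7%) and in ovaries only in 948 (21.9%). The parts of isoform number and of retained introns in these 2 counts were not tested. No protein was shared in 112 (2.59%), of which 20 had 2 or more translated isoforms in each tissue. No first 15 residues were shared in 31 genes and no last 15 in 63. Among the 20 were ovo (longest protein 1351 residues in embryos and 1028 in ovaries) and msi (634 and 606), with different N termini, and sky (607 and 587) and the junction protein canoe (cno, 1951 and 2051), with both termini in common. These 4 were named after their values were seen.

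Most gene groups below had more isoforms than the median gene, which has 1 in each tissue, and the part of isoform number in their counts was not tested. Counts are medians over the draws of embryo isoforms unless all isoforms are named. Of 47 actin cytoskeleton and junction genes (median 7 embryo and 3 ovary isoforms), 15 (31.9%) had embryo-only promoters, among them cher, spir, capu and qua, against 10.8% of all genes, and 6 (12.8%) had ovary-only ones against 12.7%. With all isoforms 19 had embryo-only promoters and 0 ovary-only ones, so the 6 rest on embryo isoforms left out by the drawing. Embryo-only internal exons were found in 23 (48.9%) against 16.6% and ovary-only ones in 17 (36.2%) against 23.6%. With all isoforms 29 had embryo-only internal exons and 8 ovary-only ones, against 22.14% and 14.95% of all genes. Part of the 17 thus also rests on embryo isoforms left out by the drawing. The embryo start of the actin nucleator spir at 2L 20341852, in 4 of 16 isoforms, lay 30632 nt from the ovary start. Of 25 microtubule and motor genes (median 2 and 2 isoforms), 7 (28.0%) had embryo-only and 4 (16.0%) ovary-only promoters.

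Germline genes had ovary-only internal exons and 3′ ends more often than embryo-only ones, but not promoters. Of 26 (median 2 embryo and 4 ovary isoforms), 14 (53.8%) had ovary-only internal exons against 23.6% of all genes, and 5 (19.2%) embryo-only ones against 16.6%. Ovary-only 3′ ends were found in 17 (65.4%) against 37.1% and embryo-only ones in 7 (26.9%) against 32.5%. Ovary-only promoters were found in 3 (11.5%) and embryo-only ones in 4 (15.4%), against 12.7% and 10.8%. AGO3 had 9 ovary-only exons, the cytoplasmic poly(A) polymerase wisp 4 (1 and 13 isoforms), the Argonaute piwi 2 (1 and 3) and the translational repressor smg 2 (8 and 24). Of 21 cell cycle genes (median 1 and 3 isoforms), ovary-only 3′ ends were found in 14 (66.7%) against 37.1% and embryo-only ones in 7 (33.3%) against 32.5%, and the cyclins CycB and CycE and the phosphatase stg were among the former.

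RNA-binding and splicing regulators had internal exons, introns and 3′ ends of 1 tissue in larger shares than all genes. Of 50 (median 7.5 and 5 isoforms), 30 (60%) had embryo-only and 37 (74.0%) ovary-only 3′ ends, against 32.5% and 37.1% of all genes. Internal exons of 1 tissue were found in 25 (50%) and 24 (48.0%) against 16.6% and 23.6%, and introns in 21 (42.0%) and 30 (60%) against 15% and 32%. Embryo-only promoters were found in 10 (20%, 7 to 13 genes over draws) against 10.8%. Ovary-only promoters were found in 8 (16.0%, 6 to 11 genes over draws), close to the 12.7% of all genes. Pasilla (ps) had 131 embryo and 6 ovary isoforms with 23 embryo-only ends and 1 ovary-only end, while sqd, which localises oocyte RNAs, had 1 and 5 isoforms with 1 and 5. Of 11 genes listed for published neural 3′ extensions (median 12 and 8 isoforms), all 11 had embryo-only 3′ ends with all isoforms and 9 ovary-only ones, against 36.9% and 32.9% of all genes. The most distal end lay farther in embryos in 9 of the 11, against 15.3% of all genes compared, with 3525 nt in Adar, 2179 nt in pum and 1929 nt in Khc-73, and farther in ovaries in Imp (by 1206 nt) and mei-P26 (by 154 nt), against 7.27%.

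Neuronal and muscle genes found in both tissues had few ovary isoforms. Of 15 neuronal and synaptic genes (median 9 and 3 isoforms), 11 (73.3%) had embryo-only and 10 (66.7%) ovary-only introns, against 15% and 32% of all genes. With all isoforms the counts were 12 and 6, against 19.6% and 21% of all genes. Of 23 muscle genes (median 11 and 2), 12 (52.2%) and 15 (65.2%) had them, and with all isoforms 17 and 5. The order of the tissues in muscle genes thus turned with the drawing. Of 18 BTB and zinc finger factors, 12 (66.7%) had embryo-only and 13 (72.2%) ovary-only 3′ ends, against 32.5% and 37.1% of all genes.

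Of 28 energy metabolism genes (median 1.5 and 2 isoforms), 9 (32.1%) had embryo-only and 9 ovary-only promoters, against 10.8% and 12.7% of all genes. Eno, the glycolytic enolase, started at 2L 1727717 in its 1 embryo isoform and 746 nt upstream at 2L 1728463 in its 3 ovary isoforms, and PyK, pyruvate kinase, had an embryo-only start in 1 of 2 isoforms. In Hex-A (hexokinase) and Gapdh1 the 1 isoform of each tissue lay on opposite strands, and the ovary one was neither annotated nor in heads.

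The remaining groups had median isoform numbers of 1 to 3.5, and the shares over all genes were 10.8% and 12.7% for promoters and 32.5% and 37.1% for 3′ ends. Embryo-only and ovary-only promoters were found in 4 (8.16%) and 9 (18.4%) of 49 signalling genes, 3 and 3 (9.68% each) of 31 chromatin regulators, 3 (8.82%) and 5 (14.7%) of 34 membrane traffic and ion transport genes, 2 and 2 (10% each) of 20 translation genes and 0 and 0 of 9 cleavage and polyadenylation genes. Embryo-only and ovary-only 3′ ends were found in 24 (49.0%) and 27 (55.1%) of the signalling genes, 12 (38.7%) and 14 (45.2%) of the chromatin regulators, 16 (47.1%) and 18 (52.9%) of the traffic genes, 8 (40%) and 11 (55%) of the translation genes and 3 (33.3%) and 6 (66.7%) of the cleavage genes. Of 18 cuticle and tracheal genes 4 were in both assemblies, and 1 had an embryo-only promoter. That gene, tyn, started 33776 nt apart in the 1 isoform of each tissue.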

How the data were processed

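Late embryo and ovary libraries (6 and 3) were compared, and heads served for context. The authors merged the replicates of a tissue, mapped reads to dm6 with minimap2, corrected and collapsed them with FLAIR using short-read junctions and promoters of the Eukaryotic Promoter Database, and deposited 1 assembly of isoform positions per tissue. These deposited positions, of another unit than a level, are 1-based coordinates in nt without read counts. Whether these assemblies passed the study's filter on 3′ ends was not given in the sources used here. The build dm6 is named in the submitters' processing notes, and gene models were those of Ensembl release 115 on the same build. The 38 compared genes that the annotation does not hold were kept.

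Isoforms of each gene were clustered by 5′ end (50 nt), 3′ end (150 nt) and splice sites (10 nt) in Python 3.11.15 with numpy 2.4.6, and figures were drawn with matplotlib 3.10.9. In genes with more isoforms in embryos, isoforms were drawn without replacement in 99 seeded draws. The positions, sequences and distances of tissue-only features were taken from all isoforms. A gene without a shared feature was sought among genes with 2 or more isoforms in each assembly. Cassette and retained-intron shifts needed 3 or more isoforms in each and a difference over 50 points. Scripts were tested on simulated assemblies. No test was run, as each tissue is 1 pooled assembly.

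Genes were named by rule: the 6 with the most embryo-only or ovary-only features of each kind, the 8 with no shared promoter or 3′ end and the highest smaller isoform number (ties by symbol), the 6 with the largest difference of distal ends in each direction among genes with 2 or more isoforms in each and overlapping last exons, the 8 switched cassette exons with the most isoforms in each direction, and examples from gene lists. Genes and lists were chosen with earlier results of these data known, and 5 listed symbols matched no gene of the annotation. Alternatives covered the drawing, the windows, near-identical and single-exon isoforms, annotated features, A-rich ends, the covered span, shared IDs and, added after the data were seen, isoform length, strand and overlap with other genes.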

Additional observations from a re-analysis of the deposited data

Results flagged for a closer look

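Isoforms without a FlyBase gene ID lay outside the comparison, and a few of them shared an intron with a compared gene. This was so for 6 of 2063 such isoforms in embryos and 2 of 583 in ovaries. Features of these isoforms were not counted for the gene.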

How the results depend on the processing

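No paired analysis was possible because the replicates of each tissue are pooled in 1 assembly, and for the same reason leaving out a library was not an option. The depth of each isoform is unknown, so absence of a feature from 1 assembly and lack of sampling cannot be told apart. Across 23 results and their alternatives, 217 values stayed within 1.5 times the reported count and 55 did not. All 23 stayed within it with halved windows, without single-exon isoforms and, among the alternatives added after seeing the data, without isoforms on the opposite strand.

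With embryos not drawn, embryo-only internal exons rose to 2344, introns to 2642 and 3′ ends to 3302, ovary-only internal exons fell to 1052 (in 691 genes) and introns to 1710 (in 970 genes). This follows from the larger number of embryo isoforms. With both tissues drawn, switched cassette exons numbered 80 toward embryos and 59 toward ovaries, as fewer isoforms span each exon. In genes with equal isoform numbers, fewer in all, embryo-only and ovary-only promoters numbered 180 and 177 (in 179 and 176 genes), internal exons 204 and 226 (132 and 146), introns 185 and 304 (109 and 190) and 3′ ends 659 and 658 (615 and 608). Distal ends were longer in embryos in 235 genes and in ovaries in 201, and 3 genes had no shared promoter and 22 no shared 3′ end.

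With isoforms under 3 kb left out, an alternative added after seeing the data, 1903 genes remained. Embryo-only and ovary-only promoters then numbered 297 and 249 (261 and 237 genes) and 3′ ends 1190 and 1233 (829 and 862 genes). Ovary-only introns numbered 1748 (813 genes), ovary-only internal exons were found in 652 genes, distal ends were longer in 306 and 148 genes, 6 genes had no shared promoter, 34 no shared 3′ end, and 5 cassette exons switched toward ovaries. Among annotated features, embryo-only internal exons numbered 597 (355 genes), embryo-only and ovary-only 3′ ends 583 and 924 (567 and 871 genes), and distal ends were longer in 157 and 98 genes. With doubled windows 206 genes were longer in ovaries. Without genes that share an intron with another ID, 5 cassette exons switched toward ovaries. The causes of the last 3 sets of values were not tested.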

Other observations

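The gene IDs themselves also differ between the assemblies. Of 1904 genes found in embryos only by ID, 68 had an intron in ovaries under another ID, and of 2069 found in ovaries only, 82 had an intron in embryos under another ID. Among the compared genes, 120 had an intron also held under another ID.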
